A study of Mus musculus with 4 samples.

Results

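Molecular chaperone genes were followed through a map of the RNA contacts of DHX9, an RNA helicase, in mouse embryonic stem (ES) cells. The members were all protein-coding genes whose symbol starts with Hspa, Hspb, Hspd, Hspe, Hsp90, Dnaja, Dnajb or Dnajc, together with Tcp1 and the genes from Cct2 to Cct8. There were 82 such genes among 21900 protein-coding genes. They fell into 3 HSP90 genes, 13 HSP70 genes, 45 J-protein genes, 8 small HSP genes (Hspb followed by a number), 9 CCT genes and 4 other members that the symbol rule brought in: Hspd1, Hspe1, Hspbp1 and Hspbap1.

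The map came from FLASH, a CLIP-seq method in which protein and RNA are crosslinked by ultraviolet light and the RNA that comes down with an antibody is sequenced. There were 4 samples of the male, feeder-independent ES cell line WT26 (strain C57BL/6x129sV), a single line grown in serum with leukemia inhibitory factor: 2 were pulldowns with a rabbit anti-DHX9 antibody and the control was rabbit IgG, used for the other 2, both as biological replicates A and B. The data were 1 list of 59563 peaks called for the whole series with PEAKachu, a CLIP-seq peak caller. The list gives a position and a strand for each peak but no height, read count or value per sample, so sequencing depth is unknown and no error between replicates can be given. A peak was counted for a gene when its midpoint lay in the gene body. Intervals below are exact (Clopper-Pearson) 95% binomial intervals over genes or peaks and cover counting error only. For densities, the closing section used exact Poisson intervals on the number of peaks. Intervals on peaks take peaks as independent, although peaks lie in runs within genes. The list holds no RNA level, so a transcript that DHX9 does not contact and one that is scarce in these cells cannot be told apart. Of the ES cell marker genes examined, 10 of 10 held a peak, against 0 of 6 fibroblast and 0 of 10 differentiated-lineage marker genes. Protein-coding genes from the same deciles of gene length gave 19.7%, 29.2% and 20.4%. The intervals of the fibroblast and differentiated-lineage lists reach 45.9% and 30.8%, so they include these references.

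Chaperones help other proteins fold and keep them from aggregating. HSP70 proteins bind short hydrophobic stretches in an ATP-driven cycle, J-proteins deliver clients to them and start ATP hydrolysis, and exchange factors release the nucleotide. HSP90 proteins act later, on nearly folded clients such as kinases and receptors, the ring-shaped CCT complex folds actin and tubulin, and small HSPs hold unfolded proteins without ATP. Many of these genes are switched on by heat shock factor, which binds heat shock elements in promoters, and those of the endoplasmic reticulum (ER) by stress of that compartment, through the ER stress element.

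The promoters below are shown because they are the members whose window carried a strict match to one of these elements. All of these genes held DHX9 peaks, but promoters and motifs were chosen after their values were seen. This is therefore no test of a link between element and peak. Of all members with a window, 28 held a peak. RefSeq promoter windows (build GRCm38.p6; 250 bases before to 50 after each annotated start) were given for 67 of the 82 members and were searched on both strands for the heat shock element GAANNTTCNNGAA and the ER stress element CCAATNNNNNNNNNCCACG. The heat shock letters were present in 0.517% of the 21263 windows of protein-coding genes and the ER stress letters in 0.141%. Counted by gene, these were 0.595% and 0.166% of the 17492 genes with a window. Every ER stress match includes a CCAAT box, which alone was present in 38.2% of windows. Each line gives the 250 bases before the start, 5′ to 3′ on the strand of the gene, with the matched letters in capitals.
Hspe1 (chr1:55087898-55088147, plus strand): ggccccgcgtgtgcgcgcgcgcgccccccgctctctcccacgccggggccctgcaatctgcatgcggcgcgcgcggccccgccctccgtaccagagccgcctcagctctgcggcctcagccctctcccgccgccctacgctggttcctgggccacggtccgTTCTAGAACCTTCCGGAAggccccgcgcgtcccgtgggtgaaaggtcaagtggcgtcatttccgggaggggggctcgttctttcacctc
Dnajb6 (chr5:29735648-29735897, plus strand): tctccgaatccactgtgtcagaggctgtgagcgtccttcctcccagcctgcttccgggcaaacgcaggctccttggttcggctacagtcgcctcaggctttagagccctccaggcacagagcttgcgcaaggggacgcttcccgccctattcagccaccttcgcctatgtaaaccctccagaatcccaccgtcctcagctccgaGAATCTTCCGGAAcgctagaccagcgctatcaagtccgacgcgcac
Hspa5 (chr2:34771840-34772089, plus strand): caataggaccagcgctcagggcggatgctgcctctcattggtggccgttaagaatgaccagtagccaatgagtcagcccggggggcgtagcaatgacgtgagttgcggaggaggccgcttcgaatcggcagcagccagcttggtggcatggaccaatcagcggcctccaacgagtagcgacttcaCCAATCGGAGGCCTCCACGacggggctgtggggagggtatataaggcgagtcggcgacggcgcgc
Hsp90b1 (chr10:86705445-86705694, minus strand): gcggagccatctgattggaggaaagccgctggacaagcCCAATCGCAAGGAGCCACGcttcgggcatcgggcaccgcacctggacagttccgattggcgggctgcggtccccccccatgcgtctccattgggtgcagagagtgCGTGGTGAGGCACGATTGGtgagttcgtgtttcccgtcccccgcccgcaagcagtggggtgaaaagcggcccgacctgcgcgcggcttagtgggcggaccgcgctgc
Dnajc3 (chr14:118937682-118937931, plus strand): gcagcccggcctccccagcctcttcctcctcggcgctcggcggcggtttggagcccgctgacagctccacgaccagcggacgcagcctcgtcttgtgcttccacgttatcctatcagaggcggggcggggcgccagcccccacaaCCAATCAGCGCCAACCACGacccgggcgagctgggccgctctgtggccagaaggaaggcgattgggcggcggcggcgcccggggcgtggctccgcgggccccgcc

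The heat shock letters were found in 3 of the 67 members with a window, Dnajb6, Hspd1 and Hspe1, and all 3 held a peak. Hspd1 and Hspe1 are read in opposite directions. The matched run, which holds overlapping matches on both strands, lies in the region printed for Hspe1 and is the same site for both genes. It began 89 bases before the Hspe1 start and 144 bases before the inner annotated Hspd1 start. The outer Hspd1 start (55088243), where its gene body begins, lies inside Hspe1, and the window of that start held no match. The site thus lies within the Hspd1 gene body. The ER stress letters were found in 3 members, all of which encode proteins of the ER: Hspa5, where the match began 65 bases before the start, Hsp90b1, with matches at 212 and 107 bases, and Dnajc3, with one at 105 bases. Their peak counts ranged widely, with 18 in Hsp90b1, 9 in Hspa5 and 1 in Dnajc3. Among the 64 members without the heat shock letters, 25 held a peak, and among the 64 without the ER stress letters also 25. A match of letters is a description and does not show that a factor binds there. The search allowed no changed letter, so a member without the letters may still carry a diverged element. The windows of Hspa1a, Hspa1b and Hspb1, for example, hold GAANNTTC without the rest of the pattern. These genes held no peak, and such partial matches were not counted.

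DHX9 peaks were present in 34 of the 82 chaperone genes (41.5%, interval 30.7 to 52.9%), against 22.8% of all protein-coding genes. Protein-coding genes from the same length deciles, weighted as the members are, gave 22.8% too. With at least 3 peaks required, 26 members (31.7%) remained, against 14.8% of all protein-coding genes. The members held 461 peaks in all. The 5 genes with the most peaks held 221 of them (47.9%), and 16 genes held at least 10 peaks each, while 6 genes held a single peak.

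**Figure D1:**
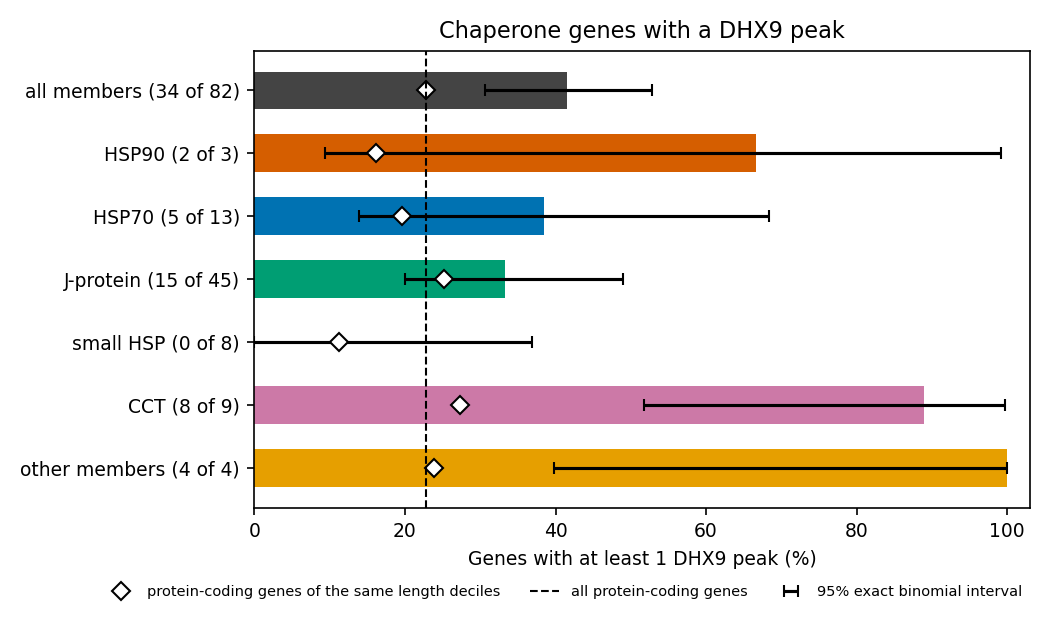
Bars give the percentage of genes with at least 1 DHX9 peak in each chaperone group, with exact 95% binomial intervals as lines; diamonds give the percentage in protein-coding genes of the same length deciles and the dashed line the 22.8% of all protein-coding genes. The CCT bar (8 of 9 genes) lies above both references and no small HSP gene held a peak.

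The share of genes with a peak ranged from none to all across the groups. CCT had a peak in 8 of 9 genes (88.9%, interval 51.8 to 99.7%, against 27.3% in the same length deciles) and HSP90 in 2 of 3 (66.7%, 9.43 to 99.2%, against 16.1%). All 4 other members held peaks (39.8 to 100%, against 23.9%). HSP70 had 5 of 13 (38.5%, 13.9 to 68.4%, against 19.6%). The J-proteins had 15 of 45 (33.3%, 20% to 49.0%, against 25.2%). The intervals of HSP90, HSP70 and the J-proteins thus include their length-decile references. None of the 8 small HSP genes held a peak, which with so few genes allows a share of up to 36.9%; these genes are short, with a median of 2.28 kb, and the same length deciles gave 11.3%. The interval of the CCT group lay wholly above those of the J-protein and small HSP groups. That of the other members lay above that of the small HSP group, and all other pairs of intervals overlapped. With at least 3 peaks required, the CCT share was 66.7% and the J-protein share 24.4%, and no intervals were computed for these. No test between the groups was made, since the groups are small sets of genes in 1 peak list.

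**Figure D2:**
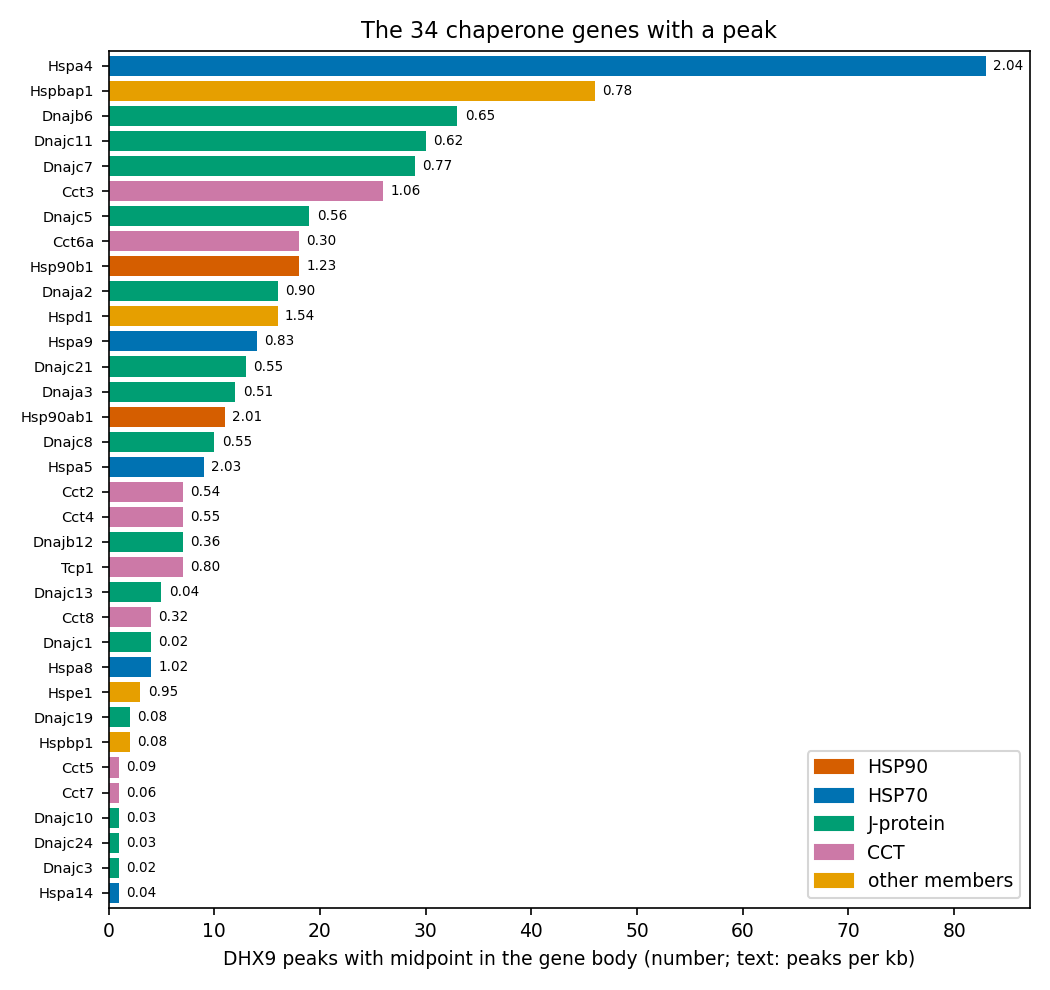
Bars give the number of DHX9 peaks in each of the 34 chaperone genes with a peak, coloured by group, and the text at each bar gives peaks per kb of gene body. Hspa4 holds 83 peaks, Hspbap1 follows with 46, and the other 48 members, not drawn, hold none.

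The members with peaks were also more densely covered than other genes. Their median density was 0.55 peaks per kb, against 0.18 in the 4989 protein-coding genes with a peak. Members with peaks were shorter than such genes in general, with a median of 23.7 kb against 31.3 kb, and shorter genes with a peak have higher densities. Within the band of 10 to 50 kb, which held 24 of the 34, the medians were 0.55 and 0.23 peaks per kb. Below 10 kb they were 1.02 and 0.60 (5 members), and at 50 kb and over 0.30 and 0.055 (5 members). By group the medians were 1.62 in HSP90, 1.02 in HSP70, 0.51 in J-proteins, 0.43 in CCT and 0.86 in the other members. Not all members shared the higher density. The 11 Dnajc genes with a peak had a median of 0.083, and the 3 J-protein genes of 50 kb and over had 0.045. Peaks covered at least 10% of the gene body in 18 of the 82 members, against 6.24% of all protein-coding genes, and at least 50% in 3, Hspa4, Hspa5 and Hsp90ab1, against 0.411%. These 3 also had the highest densities, and ranked 67, 68 and 70 among the 3250 protein-coding genes with at least 3 peaks. With peaks within 50 bases merged, the ranks were 105 for Hspa4, 50 for Hspa5 and 79 for Hsp90ab1.

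**Figure D3:**
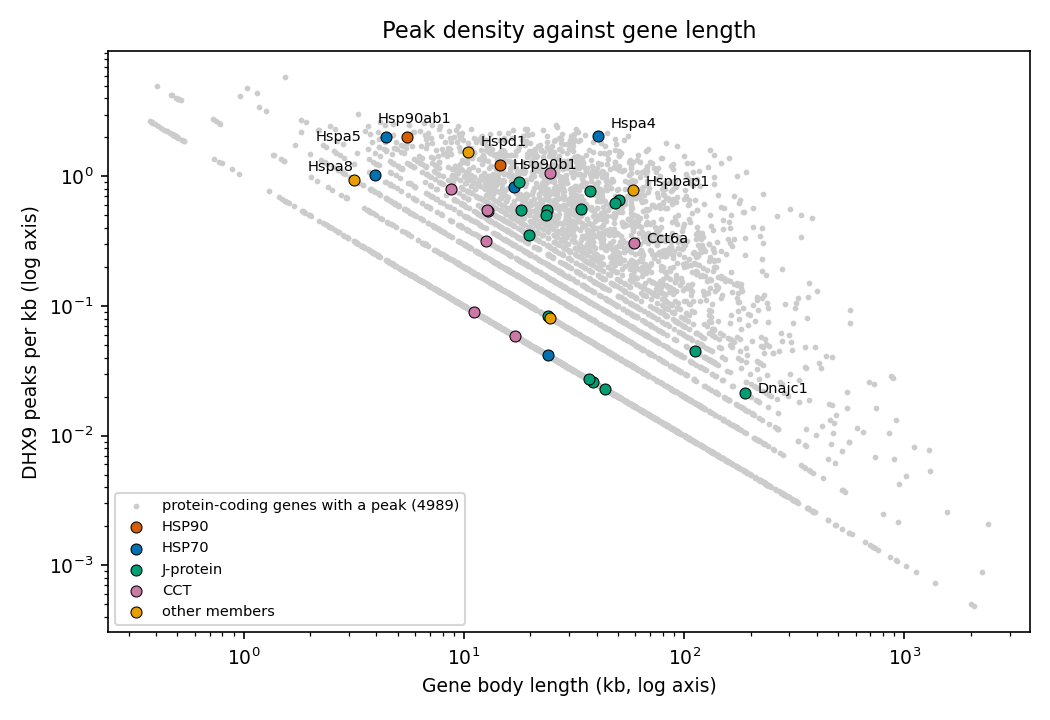
Each point is a protein-coding gene with a peak, placed by gene body length and by DHX9 peaks per kb, both on log axes; chaperone genes are coloured by group. Hspa4, Hspa5 and Hsp90ab1 lie near the upper edge at about 2 peaks per kb, and Dnajc1 is the longest and sparsest member with a peak, at 0.02 per kb.

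Among the HSP90 genes, 1 of the cytosolic pair was covered by peaks and the other held none. Hsp90ab1, the constitutive cytosolic form, held 11 peaks in 5.48 kb (chromosome 17, 45567778 to 45573261), or 2.01 per kb, and 50.6% of its body lay under peaks. Hsp90aa1, the stress-inducible form of nearly the same length (5.36 kb; chromosome 12, 110691036 to 110696395), held no peak. Hsp90b1, the form of the ER, held 18 peaks in 14.6 kb (chromosome 10, 86690841 to 86705444), or 1.23 per kb. Its peaks were narrower, with a median of 154.5 bases against 248 in Hsp90ab1, and covered 19.7% of the gene.

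HSP70 peaks lay mostly in Hspa4, which encodes an exchange factor of the HSP110 type that works on HSP70 proteins. Hspa4 held 83 of the group's 111 peaks in 40.7 kb (chromosome 11, 53259814 to 53300479), all on the minus strand, the strand of the gene. The density was 2.04 per kb, 54.6% of the gene lay under peaks, and the largest distance between neighbouring peak midpoints was 1.81 kb, so that peaks ran on from 0.26 kb after the start to 40.1 kb. Merging peaks within 50 bases left 56 of the 83. Hspa4l, its paralog, held none in 51.6 kb. The group's summed density rested on this gene: it was 1.23 peaks per kb over the 5 genes with a peak and 0.57 without Hspa4. Hspa4 lies on chromosome 11, where 29.3% of protein-coding genes held a peak.

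The organelle and constitutive HSP70 genes made up most of the rest. Hspa5, the main HSP70 of the ER, known as BiP, held 9 peaks in 4.44 kb (chromosome 2, 34772090 to 34776529), or 2.03 per kb, and 50.1% of it was covered; 4 of these peaks also lay within the overlapping gene Rabepk, which is on the opposite strand. Hspa9, the mitochondrial HSP70 or mortalin, held 14 in 16.9 kb (chromosome 18, 34937414 to 34954351), or 0.83 per kb. Hspa8, the constitutive cytosolic form, held 4 in 3.93 kb (chromosome 9, 40801276 to 40805202). Hspa14, which encodes a partner of ribosome-bound chaperones, held 1. The 8 HSP70 genes without a peak were the heat-inducible pair Hspa1a and Hspa1b, their neighbour Hspa1l, the testis form Hspa2, Hspa4l, Hspa13, Hspa12a and Hspa12b. Hspa1a and Hspa1b are near-identical copies, and how reads that fit several places were treated is not given in the sources used here, so their lack of peaks is uncertain.

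The mitochondrial chaperonin genes Hspd1 and Hspe1, which encode the barrel and the lid of 1 complex, lie head to head and each held peaks on its own strand. Hspd1 held 16 peaks, all on the minus strand, in 10.4 kb (chromosome 1, 55077833 to 55088243), a density of 1.54 per kb with 33.3% of the gene covered. Hspe1 held 3, all on the plus strand, in 3.17 kb (chromosome 1, 55088148 to 55091317). The Hspd1 peak nearest its start had its midpoint 0.67 kb into the gene and the first Hspe1 peak 0.23 kb into that gene, so no peak midpoint fell in the overlap of the 2 gene models around the shared promoter. Hspbap1, whose product binds the small HSP Hspb1, held 46 peaks in 58.7 kb (chromosome 16, 35769726 to 35828462), the second highest count, while Hspbp1, an exchange factor of HSP70, held 2 in 24.7 kb.

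**Figure D4:**
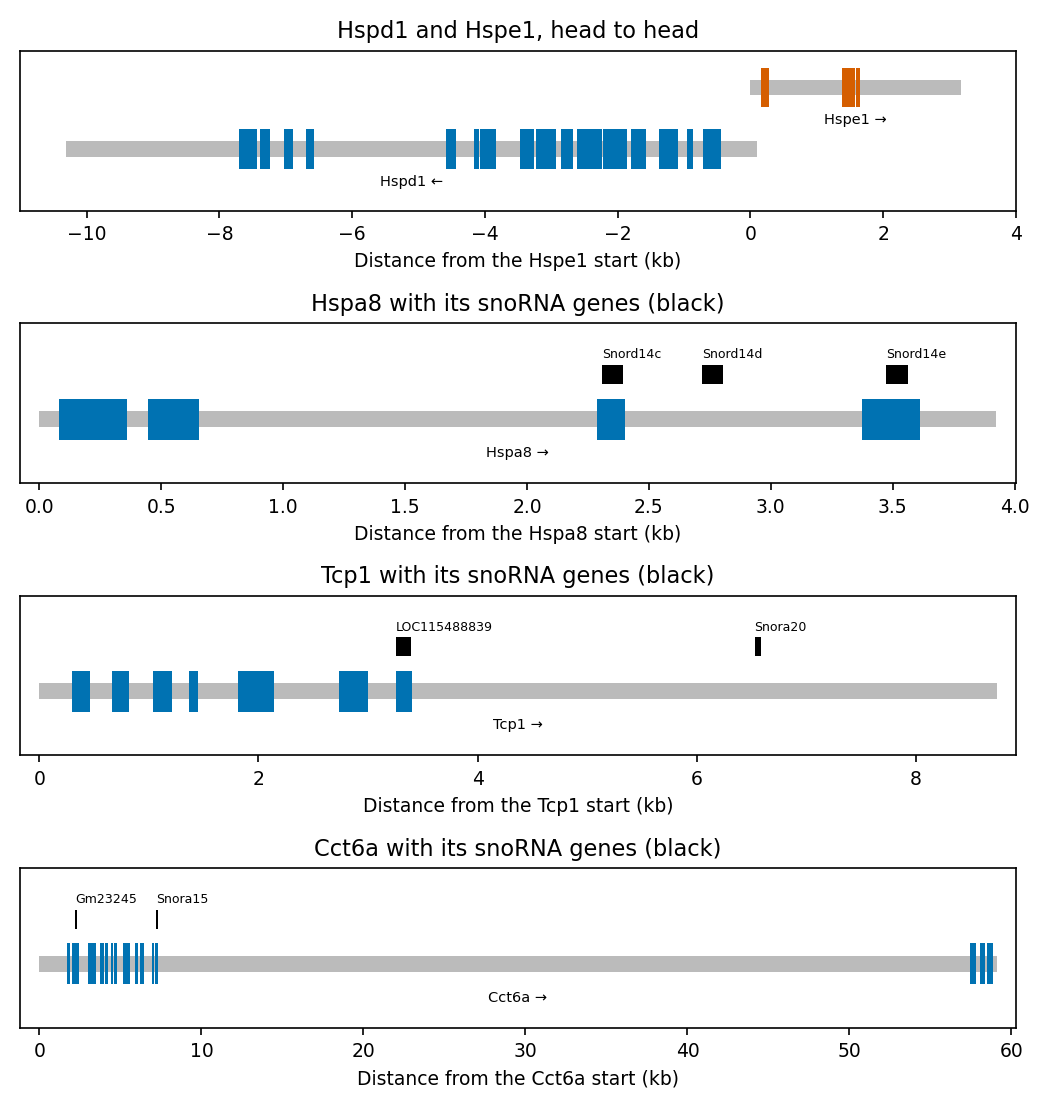
Gene bodies (grey) with their DHX9 peaks (coloured boxes, to scale) against distance in kb; arrows give the reading direction and black boxes the snoRNA genes. In the top map the 16 peaks of Hspd1 and the 3 of Hspe1 point away from each other; the lower maps show 2 of the 4 Hspa8 peaks and 1 of the 7 Tcp1 peaks over snoRNA genes, and the Cct6a peaks at both ends of its annotated body.

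All CCT subunit genes held a peak except Cct6b, the testis form of the Cct6 subunit. Cct3 held 26 peaks in 24.6 kb (chromosome 3, 88297135 to 88321766), the most in the group, at 1.06 per kb. Cct2, Cct4 and Tcp1 held 7 each, with 4 of those in Tcp1 also inside Mrpl18, an overlapping minus-strand gene. Cct8 held 4, and Cct5 and Cct7 held 1 each. Counts thus ran from 1 to 26 in genes whose proteins stand in the same complex in equal numbers. Without Cct3 the group's summed density was 0.34 in place of 0.45 peaks per kb. Cct6a held 18 peaks, of which 15 lay in the first 20% of its length and 3 in the last 20%, with 50.4 kb between the 2 clusters. Its annotated body of 59.1 kb is far longer than the 8.74 to 24.6 kb of the other subunit genes with a peak, so its 0.30 peaks per kb averages over a long stretch without peaks. Cct6b held none in 51.3 kb.

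Among the J-protein genes, peaks were found in 15 of 45. None of the 13 shorter than 10 kb held one, where 8.45% of all protein-coding genes did. With so few genes a count of none lies near that share, and no interval was computed. From 10 to 50 kb, 12 of 27 held a peak, against 29.3% of all such genes, and at 50 kb and over 3 of 5, against 33.8%. By subfamily, peaks were present in 2 of 4 Dnaja genes, 2 of 13 Dnajb genes (15.4%) and 11 of 28 Dnajc genes (39.3%), against 27.0%, 19.3% and 27.7% in the same length deciles. The Dnajb share was below its reference, and the 95% intervals of these 3 shares include their references. Dnaja and Dnajb proteins share more of the domain plan of bacterial DnaJ, while Dnajc proteins share only the J domain and have diverse tasks.

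Dnajb6, a strong suppressor of protein aggregation, held the most, 33 peaks in 50.6 kb (chromosome 5, 29735898 to 29786478). Dnajc11, a mitochondrial membrane protein, held 30 in 48.2 kb (chromosome 4, 151933720 to 151981959), and Dnajc7, which binds both HSP70 and HSP90, held 29 in 37.5 kb (chromosome 11, 100582818 to 100620292), 19 of them outside any overlapping gene. Dnajc5, the cysteine string protein of secretory vesicles, held 19, while its paralogs Dnajc5b and Dnajc5g held none. Dnaja2, a cytosolic partner of Hspa8, held 16, and Dnaja1, another such partner, held none. Dnajc21, which acts in ribosome assembly, held 13, the mitochondrial Dnaja3 held 12, and Dnajc8, a protein linked to splicing, held 10. The ER membrane gene Dnajb12 held 7, 2 of which also lay in the lncRNA gene Gm46226, and the endosomal gene Dnajc13 held 5, 4 of them also in the lncRNA gene Gm46130. The densities of the first 8 of these genes lay between 0.51 (Dnaja3) and 0.90 per kb (Dnaja2). Dnajb12 and Dnajc13 were sparser, with 0.36 and 0.045 per kb.

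The remaining J-protein genes held few peaks or none. Dnajc1 held 4 in 188 kb, Dnajc19 held 2, and Dnajc3, Dnajc10 and Dnajc24 held 1 each. The 2 peaks in Dnajc19, a gene for a mitochondrial import protein on the minus strand, were on the plus strand and lay within Fxr1, a plus-strand gene that overlaps it, so Dnajc19 held no peak on its own strand. Genes without a peak were Dnaja1 and Dnaja4; Dnajb1, Dnajb2, Dnajb3, Dnajb4, Dnajb5, Dnajb7, Dnajb8, Dnajb9, Dnajb11, Dnajb13 and Dnajb14; and Dnajc2, Dnajc4, Dnajc5b, Dnajc5g, Dnajc6, Dnajc9, Dnajc12, Dnajc14, Dnajc15, Dnajc16, Dnajc17, Dnajc18, Dnajc22, Dnajc25, Dnajc27, Dnajc28 and Dnajc30. Dnajb1, the classical heat-inducible J-protein, is thus among them. So are Dnajb9 and Dnajb11 of the ER, where Hspa5, the chaperone they serve, was densely covered.

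The small HSP genes Hspb1, Hspb2, Hspb3, Hspb6, Hspb7, Hspb8, Hspb9 and Hspb11 held no peak on either strand. The longest of them, Hspb11, spans 30.9 kb and encodes a protein of cilia rather than a typical small HSP. Hspb8, a partner in selective autophagy, spans 14.4 kb, and the other 6 are each shorter than 10 kb.

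Within chaperone genes the peaks lay on the strand of the gene. Where RefSeq gave the strand, 374 of 376 peaks in 28 members (99.5%, interval 98.1 to 99.9%) were on it, against 98.0% in all protein-coding genes with a peak. The 2 exceptions were those in Dnajc19. This interval takes the peaks as independent, although 83 of them lie in Hspa4, so it may be too narrow. In the other 6 members with peaks, Hsp90ab1, Hspa8, Hspa9, Cct4, Dnajc5 and Dnajc11, all peaks of a gene were on 1 strand, which was taken as its direction. Of the 461 peaks, 32 also had their midpoint in another gene.

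Along the gene body, 145 of the 461 peaks (31.5%) lay in the first 20% and 59 (12.8%) in the last 20%. All protein-coding genes with a peak gave 27.6% and 12.6%. Groups were compared by their values alone, with no test. In HSP90 these end stretches held 24.1% and 20.7%, and in HSP70 21.6% and 18.9%, whereas J-proteins had 31.7% and 12.0% and the CCT genes 35.2% and 12.7%. In HSP70 these were mainly the peaks of Hspa4, with 18 of 24 in the first stretch and 18 of 21 in the last; without it the values were 21.4% and 10.7%. In the CCT group 15 of the 25 peaks of the first stretch were those of Cct6a. The other members had 46.3% and 1.49%, with 26 of 31 peaks of the first stretch in Hspbap1. Counted by gene, the first 20% held more peaks than the last 20% in 15 of the 22 members with at least 5 peaks; the last held more in 3, and 4 were equal. Among all protein-coding genes with at least 5 peaks, the first 20% held more in 59% (1501 of 2544).

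**Figure D5:**
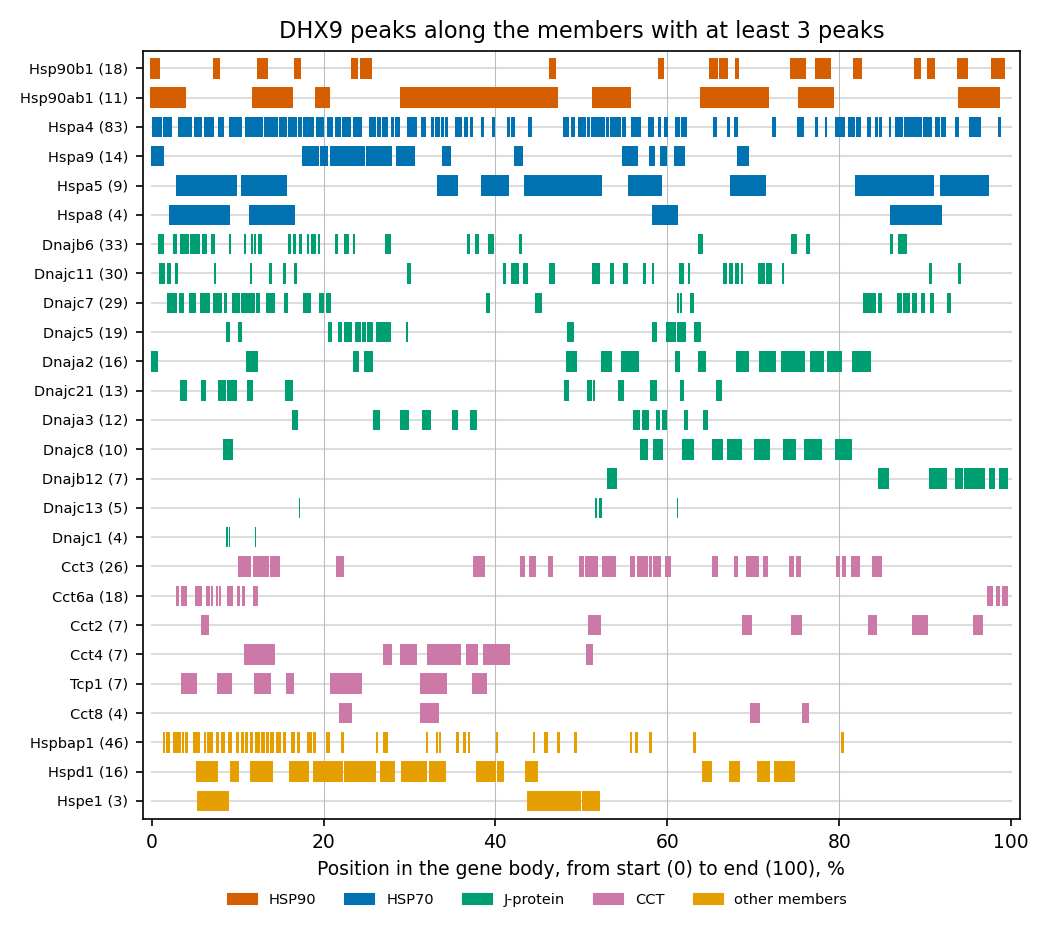
Each row is a chaperone gene with at least 3 peaks (number in brackets), drawn from its start (0%) to its end (100%) along the strand of the gene, or of its peaks where RefSeq gave none; boxes are peaks, to scale. Hspa4 is covered throughout, Hspbap1 and Dnajb6 are filled towards the start, and Dnajb12 has 6 of its 7 peaks in the last 20%.

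The 3 genes with more peaks in the last 20% were Dnajb12 (6 against 0), Cct2 (3 against 1) and Hsp90b1 (5 against 4). Hspa4 was even, with 18, 21, 16, 10 and 18 peaks in successive steps of 20% of its length. Dnajb6 held 18 of its 33 peaks in the first 20% and Dnajc7 held 14 of 29 there and 9 in the last 20%, with 9 peaks of Dnajc7 shared with Cnp, a plus-strand gene that overlaps it. Dnajc8 was filled mainly between 60 and 80% of its length, with 6 of 10, and Dnajc5 between 20 and 40%, with 11 of 19. A promoter window was touched by a peak on the strand of the gene in 5 of the 28 members with peaks and a window, Cct5, Hspa4, Hsp90b1, Dnaja2 and Dnajc7, against 8.49% of such genes overall. Outside genes, no member had a peak on its strand within 5 kb before the start (2.06% of all genes with a peak did), and 2 of 34, Hspa8 and Dnajc21, had one within 5 kb after the end (4.69% overall).

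Several chaperone genes carry small RNA genes, and peaks lay over some of them. Of 9 snoRNA genes in 4 members, 6 overlapped a peak over their whole length, and none of 4 microRNA and 2 snRNA genes did. These microRNA and snRNA genes lay in members without a peak, apart from the snRNA gene Gm24762 in Dnajc8. The share of all small RNA genes that overlap a peak was not computed, so these counts have no background beside them. In Hspa8, peaks on the plus strand covered all 87 bases of Snord14c (chromosome 9, 40803583 to 40803669) and all 91 of Snord14e (40804748 to 40804838), whereas Snord14d between them was not touched. The other 2 Hspa8 peaks had their midpoints 0.22 and 0.55 kb from the start. In Tcp1 the peak from 12919583 to 12919733 matched the snoRNA gene LOC115488839 (chromosome 17, 12919585 to 12919722) nearly base for base, and Snora20 was not touched. In Cct6a, Gm23245 and Snora15 lay under peaks, and in Hspa9, Gm26109 did and Gm22200 did not. Peaks over a snoRNA gene count for its host here, which bears most on Hspa8: with peaks in no other gene, it kept 2 of 4.

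Of the 16 pseudogenes named after members, 2 held a peak, Hspa9-ps1 and Hspd1-ps3 with 1 each, against 1.14% of all pseudogenes. How reads that fit several places were treated is not given, so the origin of these 2 peaks is uncertain. The other copies of Hspd1 and the copy of Dnajb6 held none.

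The partners of the chaperone machines were read from a list of 46 co-chaperones, folding enzymes and heat shock factors. Of these, 28 (60.9%, interval 45.4 to 74.9%) held a peak, against 24.6% in protein-coding genes of the same length deciles, and their median density was 0.42 peaks per kb. Canx, the lectin chaperone calnexin of the ER, and Fkbp5, an immunophilin of HSP90, held 67 peaks each. Ptges3, a late HSP90 co-chaperone, and Trap1, the mitochondrial HSP90, held 35 each. St13 and Stip1, which work between HSP70 and HSP90, held 29 each. The heat shock factor genes Hsf1 and Hsf2 held 1 and 3 peaks.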

How the data were processed

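UV-crosslinked RNA from 2 DHX9 and 2 IgG pulldowns was sequenced, with PCR duplicates merged by random tags, per the labels' protocols. The authors deposited 1 peak list, called with PEAKachu per the file's source column; no source used here gives how the control entered the calling. Bowtie2 2.2.6 and the builds hg19 and mm10 stand in the submitters' processing notes; mm10 was taken from the scaffold names. The score field was empty in all 59563 peaks. Genes came from a RefSeq table of GRCm38.p6 (49980 placed genes); strand came from RefSeq promoter windows, or from the peaks where no window was given. Exons and introns were not analysed here. Counts, densities, 5 equal stretches of the gene body and length deciles were computed in Python 3.11.15 with pandas 2.3.3 and scipy 1.17.1; peak assignment and merging were tested on simulated data.

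The members and lists were chosen with earlier results of these data known. By rule the text names all HSP90 and CCT genes, Hspd1, Hspe1, HSP70 and small HSP genes with and without peaks, the 10 J-protein genes with the most peaks, the 5 densest members, small RNA genes under peaks and 6 co-chaperones. Other J-protein genes, Hsf1, Hsf2, promoters and motifs were chosen after their values were seen. Alternatives covered overlap, merging within 50 bases, peak number, width, strand, shared genes, gene weighting and, added after seeing the data, chromosomes 8 and 11, the leading genes and RefSeq strand alone.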

Additional observations from a re-analysis of the deposited data

How the results depend on the processing

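Of 122 recomputed values, 109 stayed within the main 95% interval and 13 moved outside it. For densities and their ratios this was an exact Poisson interval on the number of peaks, otherwise a binomial one. Intervals on peaks take peaks as independent, although they lie in runs. Those over few genes are wide, 9.43 to 99.2% for the share of the 3 HSP90 genes, so a value within them says little. Stricter settings can only lower a share. Shares of genes with a peak moved only for CCT without chromosomes 8 and 11, to 100% from 88.9%, since that leaves out Cct6b. Merging peaks within 50 bases lowered the density of all members with a peak from 0.43 to 0.35 peaks per kb and that of HSP70 from 1.23 to 0.87. Without chromosomes 8 and 11 these densities were 0.33 and 0.57, and that of the J-proteins was 0.21 in place of 0.26; without Hspa4 the first 2 were 0.36 and 0.57, and without Cct3 that of CCT was 0.34. With each gene of equal weight, the last 20% of the gene held 9.64% of peaks over all members, and the first 20% held 28.7% in the 4 other members. Without Hspa4, the last 20% held 10.7% of HSP70 peaks in place of 18.9%. With peaks in no other gene, 100% lay on the annotated strand. No paired analysis was possible because the peak list has no values per replicate, and leaving out a replicate was not possible for the same reason. Depth is unknown, so a gene without a peak has no stated limit of detection.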
